A study of Mus musculus with 11 samples.

Results

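Collagens and laminins make up most of the protein scaffold of the blood vessel wall, and their genes were followed here through 4 cell types of the mouse cerebral cortex. The 55 genes are all those of the 26921 genes in the count tables whose symbol is Col, a number, a and a number (44 collagen genes) or Lam, a, b or c and a digit (11 laminin genes). The rule reads only the symbol. Single-cell libraries were made from cortex that had been depleted of myelin, and all mice were female C57BL/6. The Juvenile group (n = 4 libraries) was taken at P10, the Adult group (n = 3) at 7 to 11 weeks, the Aged group (n = 2) at 18 months and the EAE group (n = 2) at 7 to 11 weeks. EAE, experimental autoimmune encephalomyelitis, was induced with a myelin oligodendrocyte glycoprotein peptide in Complete Freund's Adjuvant, followed by pertussis toxin, and tissue was taken at the peak of disease. The 3 other groups received no treatment. A group given only adjuvant and toxin was not analysed here, so the parts of the peptide, the adjuvant and the toxin cannot be told apart. Each library held pooled tissue of 6 mice (Juvenile and Adult) or 3 mice (Aged and EAE).

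Type IV collagen forms the sheet-like network of basement membranes, the thin layers of matrix beneath endothelium and around mural cells. Laminins, each a trimer of an alpha, a beta and a gamma chain, form the second network that binds cells through integrins and dystroglycan. Brain capillaries have an endothelial basement membrane, which pericytes share, while the laminins of larger vessels also come from smooth muscle cells (SMCs). Fibrillar collagens such as types I and III, and the beaded filaments of type VI, fill the adventitia and perivascular space and are known as products of fibroblasts. The choroid plexus is a secretory epithelium on a vascular stroma.

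Clusters of cells were called endothelial-like (EC), mural-like, fibroblast-like and choroid plexus-like from their marker genes, and are named below as ECs, mural cells, fibroblasts and choroid plexus cells. ECs numbered 3125 in juvenile, 5036 in adult, 5776 in aged and 7126 in EAE libraries. In the same order there were 519, 413, 260 and 205 mural cells and 2043, 2875, 846 and 913 choroid plexus cells. Fibroblasts numbered 991 in juvenile libraries but only 63, 77 and 38 in the others, that is 18 to 40 cells per library. Levels are given as CPM, the UMIs of a gene relative to all UMIs of that cell type in that library. The defining genes Cldn5 (6853 to 9537 CPM), Rgs5 (5336 to 14520.0 CPM), Dcn (734 to 6377 CPM) and Ttr (299500.0 to 360400.0 CPM) were high in every library in ECs, mural cells, fibroblasts and choroid plexus cells. Libraries held 15755504 to 34326349 UMIs, and UMIs of a type were summed per library. Depth per cell differed between conditions. In juvenile, adult, aged and EAE libraries the median UMIs were 5977, 3148, 2341 and 2365 in ECs and 4836, 1650, 1288 and 1262 in mural cells. In the same order they were 4226, 1995, 3174 and 4452 in fibroblasts and 8877, 4714, 5478.5 and 11144 in choroid plexus cells. The part of depth in the results was not tested. Adult 2 and 3, Juvenile 1 and 2, and Juvenile 3 and 4 were close to counting noise of each other and were each summed to 1 of 8 units for the tests. In ECs their chi-square per degree of freedom was 1.404 to 2.58, against 12.02 to 29.6 for the other pairs within those 2 groups. The aged (2.58) and EAE (1.95) pairs were as close but are all those groups hold, so they stayed apart. All 4 conditions shared 1 estimate of the spread in 1 fit per type. The p-values of every comparison, also juvenile against adult, therefore draw on a spread that may be technical. Adult 1 stood apart: 755 of its 856 ECs lay in a cluster that held 45 and 36 ECs of Adult 2 and 3 and 0 to 20 of each other library, and choroid plexus markers summed to 52710.0 CPM in its ECs against 20880.0 to 21510.0 CPM in Adult 2 and 3 and 3933 to 9128 CPM in juvenile libraries. The clusters that held most ECs also differed between conditions (2851 of 3125 juvenile ECs in 1 cluster, 2813 of 5036 adult ECs in another, 4356 of 5776 aged ECs in another, and 3610 of 7126 EAE ECs in another), and whole ECs were compared across them. Without Adult 1, the members that differed from adult in juvenile, aged and EAE libraries numbered 16, 3 and 8 in ECs, 8, 0 and 0 in mural cells, 0, 0 and 1 in fibroblasts and 26, 6 and 11 in choroid plexus cells; the counts with it are given with each type. Here and below, the share over all genes was not counted under alternatives other than single subtypes. Those counts of members therefore have no background to be read against. Most choroid plexus cells lay in cluster 2 in adult and aged libraries (2598 of 2875 and 704 of 846), in cluster 10 in juvenile (1718 of 2043) and in EAE libraries in clusters 16 and 2 (474 and 415 of 913). Fibroblasts lay in 2 clusters (13 and 24) in unequal shares.

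Fibroblasts expressed the most members: 35 of 55 reached a mean of at least 20 CPM there, against 25 in mural cells, 15 in choroid plexus cells and 11 in ECs, and 20, 14, 3 and 6 of them reached 100 CPM. A member counts here where any 1 of the 4 condition means reached the level. With 18 to 40 fibroblasts in each later library, a few UMIs can be enough there, so the types are not compared at equal depth. The numbers of members without a single UMI were 2 in ECs, 4 in mural cells, 3 in fibroblasts and 3 in choroid plexus cells. Free RNA can add to such values and was not measured on its own here. Microglia were read as a guide to it, though genes that they express themselves cannot be told apart from it. In microglia, which are not known to make vessel matrix, mean Col4a1 was 5.595 to 16.3 CPM, Lamb2 7.601 to 18.7 CPM and Col9a3 11.9 to 52.4 CPM over the 4 conditions. In 1 fit of the 4 cell types, 44 members were tested and 21 were higher in fibroblasts than in each of the other 3 types, against a background of 5.56% of all genes. They include Col1a1, Col1a2, Col3a1, Col6a1, Col6a2 and Col12a1. The difference from the next highest type, mural cells, was log2 7.37 ± 0.49 (SE) for Col1a1 and 2.30 ± 0.27 for Col1a2. Mural cells were highest for 5 (background 6.22%), of which Lamc1 (2.60 ± 0.21 above ECs), Lama4 (1.18 ± 0.21) and Lamb2 (0.81 ± 0.17) are laminins. The others, Col5a3 and Col28a1, had means of at most 26.8 and 6.36 CPM. Choroid plexus cells were highest for 4 (background 18.3%): Col9a3, Col8a1, Col8a2 and Col17a1. ECs were highest for only 1 (background 11.7%), Lama3, a laminin alpha chain with a mean of at most 7.54 CPM. Col5a3, Col28a1, Col17a1 and Lama3 are named after their values were seen, to complete these counts. Without Adult 1 the counts were 20, 5, 4 and 1 for fibroblasts, mural cells, choroid plexus cells and ECs.

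**Figure D1:**
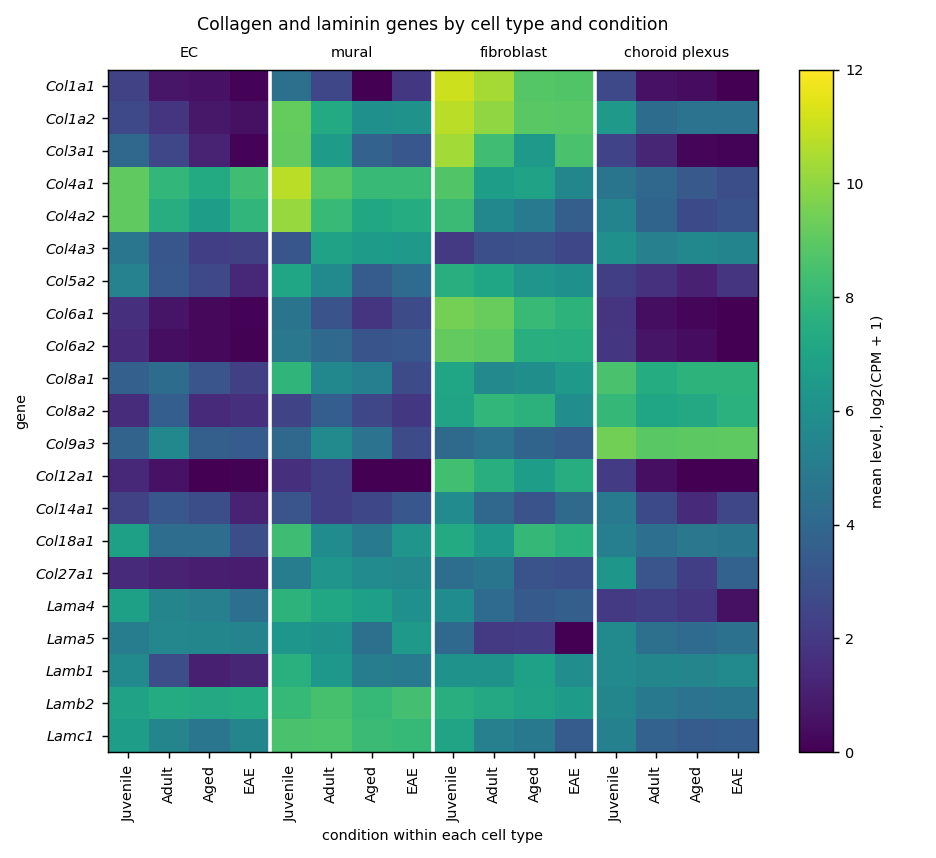
Mean level of 21 named collagen and laminin genes (rows) in each condition of each cell type (columns), on a log2(CPM + 1) colour scale, averaged over units. Col1a1, Col1a2, Col3a1, Col6a1 and Col6a2 are brightest in fibroblasts, Col4a1 and Col4a2 in juvenile mural cells, Lamc1 and Lamb2 in mural cells, and Col8a1, Col8a2 and Col9a3 in choroid plexus cells.

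Col4a1 and Col4a2 encode the chains of the type IV collagen trimer found in nearly all basement membranes. They lie head to head on chromosome 8 (GRCm38): Col4a1 spans chr8:11198423-11312826 on the minus strand and Col4a2 chr8:11312805-11449287 on the plus strand, so their annotated first exons share 22 bases. This shared stretch, chr8:11312805-11312826 in RefSeq's GRCm38.p6 sequence, is shown because both genes changed together in the results that follow. Capitals mark GGGCGG, a GC box. Plus strand, 5′ to 3′:
Col4a1 and Col4a2 shared start: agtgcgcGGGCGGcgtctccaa
The 6 type IV genes form 3 such pairs, with Col4a3 and Col4a4 71 bases apart on chromosome 1 and Col4a5 and Col4a6 1308 bases apart on the X chromosome.

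In ECs, both genes were highest at P10, lowest at 18 months and higher in EAE than in untreated adults. Col4a1 was at 634, 545, 477 and 475 CPM in the 4 juvenile and 225, 265 and 262 CPM in the 3 adult libraries. In the aged libraries the level was 161 and 164 CPM and in the EAE libraries 329.5 and 318 CPM. Each group lies apart from the adult range, with juvenile above EAE, EAE above adult and adult above aged libraries. The juvenile level was higher (log2 fold change 1.21 ± 0.13 (SE), adjusted p = 8.65e-05), the aged level lower (-0.58 ± 0.13, adjusted p = 0.0389) and the EAE level higher (0.59 ± 0.12, adjusted p = 0.00898) than adult. Col4a2 was at 589, 533, 494 and 502 CPM in the 4 juvenile and 149.6, 205 and 204 CPM in the 3 adult libraries. Aged libraries held 106 and 107 CPM and EAE libraries 245 and 235 CPM. Its groups fall in the same order without overlap, with log2 fold change 1.66 ± 0.14 (SE), adjusted p = 2.96e-05 for juvenile, -0.73 ± 0.14, adjusted p = 0.0299 for aged and 0.61 ± 0.14, adjusted p = 0.0134 for EAE against adult libraries. The aged calls of both genes were lost without either aged library (Col4a1 without Aged 1, -0.56, adjusted p = 0.371; Col4a2, -0.72, adjusted p = 0.307) and without either EAE library, that of Col4a1 also without Adult 2 and 3. The EAE calls were lost without either EAE library (Col4a1 without EAE 1, 0.55, adjusted p = 0.0961; Col4a2, 0.58, adjusted p = 0.112), all with the direction kept. Col4a3, a chain of the second type IV network best known from the kidney filter, was low in ECs, at 22.98 to 27.4 CPM in juvenile and 6.08 to 9.83 CPM in adult libraries (log2 fold change 1.75 ± 0.21 (SE), adjusted p = 0.000192). In aged and EAE ECs it fell to means of 3.68 and 3.88 CPM (-1.10 ± 0.24, adjusted p = 0.0409 and -0.85 ± 0.23, adjusted p = 0.0254). Both calls were lost without Adult 1 (-0.90, adjusted p = 0.0526 and -0.65, adjusted p = 0.0641) and without either EAE library, the aged one also without either aged library. Both were also lost with DESeq2 (-1.12, adjusted p = 0.0682 and -0.87, adjusted p = 0.0813) and with cells named by marker score (-0.70, adjusted p = 0.138 and -0.61, adjusted p = 0.0778), and the aged one without doublets (-1.05, adjusted p = 0.0635). Choroid plexus cells held Col4a3 at 27.5 to 66.9 CPM. Their markers in ECs (8 of 8 detected) moved with it, from 20880.0 to 52710.0 CPM in adult to 7244 to 9352 CPM in aged and 8116 to 8328 CPM in EAE libraries, and their part in the result was not tested.

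Among all members in ECs, 30 passed the filter on low counts. Of these, 20 differed between juvenile and adult libraries (15 higher and 5 lower in juvenile), 66.7% against 35.4% of all genes tested. The median log2 fold change was 1.42 over the tested members and -0.05 over all genes. Of the 20, 10 reached 20 CPM. The EC markers themselves summed to 14820.0 to 20530.0 CPM in juvenile and 25120.0 to 27520.0 CPM in adult ECs. Of the 16 marker lists of other cell types, 1 was higher and 8 lower in juvenile than in adult ECs without overlap of the libraries. Astrocyte markers were at 203 to 219 against 100.2 to 186 CPM, oligodendrocyte markers at 55.2 to 101 against 149 to 217 CPM and neuron or neuroblast markers at 59.7 to 72.3 against 92.02 to 96.8 CPM (6 of 6 detected in each). The others lower were the choroid plexus list, given with the libraries, and 5 lists of immune cells, each at 101 CPM or less in all these libraries. The part of these lists in the result was not tested. In aged against adult ECs 4 fell and 0 rose (13.3%, background 3.72%), with a median of -0.81. They are Col4a1, Col4a2, Col4a3 and Lamc1, the gene of the laminin gamma 1 chain. In EAE against adult ECs 2 rose, Col4a1 and Col4a2, and 8 fell (33.3%, background 24.6%, median -1.71). Only 3 of the 10 reached 20 CPM, which are Col4a1, Col4a2 and Lama4. Other lists moved here too, 3 higher and 6 lower in aged and 4 higher and 9 lower in EAE ECs. In EAE against adult ECs, fibroblast markers summed to 1757 to 1938 against 482 to 1173 CPM (10 of 10 detected). Of that sum Apod held 832 to 849 against 118 to 134 CPM, while the defining markers Dcn (0.185 to 0.722 against 0.661 to 1.19 CPM) and Lum (0.0923 to 0.1805 against 0.265 to 0.398 CPM) were near 0 and not higher. Neutrophil markers summed to 186 to 206 against 30.3 to 39.2 CPM (5 of 5), monocyte or macrophage markers to 90.8 to 104 against 21.3 to 55.2 CPM (5 of 5) and T or NK cell markers to 22.3 to 25.7 against 3.04 to 9.83 CPM (6 of 6). Mural markers (10 of 10 detected) were lower, at 78.5 to 229.9 CPM in adult, 54.3 to 64.7 CPM in aged and 42.3 to 46.6 CPM in EAE ECs. In aged ECs neutrophil markers summed to 197 to 252 CPM and neuron or neuroblast markers to 318 to 342 CPM. Their part in these changes was not tested. The aged count was 0 without either aged library, 1 without either EAE library and 8 without Adult 2 and 3. The EAE count was 2 without either EAE library. All called members in ECs had library ranges that did not overlap. Among the members not called, 3 in juvenile, 10 in aged and 9 in EAE ECs did not overlap with adult libraries either. The share over all genes was not counted, so the lack of overlap does not set the called members apart.

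The laminin chains of ECs changed unequally with age. Lama4 encodes the alpha 4 chain of the endothelial laminin-411, and it was at 119, 120.5, 107 and 101 CPM in the 4 juvenile and 45.3, 41.9 and 41.1 CPM in the 3 adult libraries. The aged values were 34.3 and 39.3 CPM and the EAE values 18.6 and 21.8 CPM. The juvenile libraries were the highest and the EAE libraries the lowest, with no overlap with the adult range. Lama4 rose in juvenile (log2 fold change 1.46 ± 0.12 (SE), adjusted p = 1.88e-05) and fell in EAE ECs (-0.91 ± 0.13, adjusted p = 0.000907), under all 16 alternatives tried for each. Lamb1, the beta 1 chain, was at 63.3, 60.4, 42.7 and 40.1 CPM in the 4 juvenile and 8.46, 3.45 and 4.099 CPM in the 3 adult libraries. In the aged libraries the level was 0.503 and 1.61 CPM and in the EAE libraries 1.35 and 1.48 CPM. Among laminins over 20 CPM its juvenile difference was the largest (log2 fold change 3.38 ± 0.39 (SE), adjusted p = 0.000502). Lamc1, the gamma chain of most laminins, was at 113, 115, 86.6 and 92.5 CPM in the 4 juvenile and 40.4, 48.7 and 40.1 CPM in the 3 adult libraries. Aged libraries held 26.9 and 23.9 CPM and EAE libraries 42.95 and 43.9 CPM. Its juvenile level was higher (log2 fold change 1.34 ± 0.13 (SE), adjusted p = 5.45e-05) and its aged level lower (-0.74 ± 0.14, adjusted p = 0.0238) than adult. The aged call was lost without either aged library (without Aged 2, -0.62, adjusted p = 0.244) and without Adult 2 and 3. The other 2 laminins of the 8 highest members went the opposite way by a small amount. Lamb2, the beta 2 chain of mature vessels, was at 108 to 125 CPM in juvenile and 151 to 182 CPM in adult libraries (log2 fold change -0.37 ± 0.11 (SE), adjusted p = 0.028). Lama5, the alpha 5 chain of laminin-511, was at 32.2 to 34.5 and 42.8 to 48.6 CPM (-0.37 ± 0.10, adjusted p = 0.0205). Those 2 calls were lost under 9 and 10 of 16 alternatives, among them the removal of either aged or either EAE library (without EAE 1, -0.32, adjusted p = 0.123 for Lamb2 and -0.32, adjusted p = 0.0882 for Lama5).

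Col18a1, the heparan sulfate-bearing collagen of vascular basement membranes that carries endostatin, was at 151, 120.1, 90.6 and 90.1 CPM in the 4 juvenile and 14.5, 20.2 and 25.9 CPM in the 3 adult libraries. The aged values were 21.8 and 14.8 CPM and the EAE values 6.86 and 6.001 CPM. The 4 juvenile libraries held several times more than any later one (log2 fold change 2.58 ± 0.28 (SE), adjusted p = 0.000462), with EAE libraries below the adult range (-1.44 ± 0.32, adjusted p = 0.0185). The EAE call was lost without either EAE library (without EAE 1, -1.54, adjusted p = 0.0821) and without Adult 2 and 3. Col5a2, a minor chain of fibrils, was at 59.1, 54.1, 21.8 and 20.05 CPM in juvenile and 4.64, 13.9 and 12.03 CPM in adult libraries (log2 fold change 2.03 ± 0.57 (SE), adjusted p = 0.0371). This call was lost without Adult 1 (1.63, adjusted p = 0.107), without Juvenile 1 and 2 and without any 1 aged or EAE library. The juvenile values of Col5a2 fall in 2 pairs that follow the pairs of libraries. Col9a3, the eighth of the 8 highest members in ECs, was at 11.3, 8.91, 14.3 and 18.4 CPM in the 4 juvenile and 74.8, 20.4 and 21.4 CPM in the 3 adult libraries. In the aged libraries the level was 9.68 and 13.4 CPM and in the EAE libraries 10.8 and 9.79 CPM. Its top level lay in Adult 1, where choroid plexus markers were also highest, and it passed no test (juvenile -1.66 ± 0.62, adjusted p = 0.0891). In choroid plexus cells it was at 451 to 716 CPM. Its means in ECs were 13.3, 47.9, 11.5 and 10.3 CPM in juvenile, adult, aged and EAE libraries. In microglia, the guide to free RNA, they were 14.9, 52.4, 11.9 and 13.4 CPM in the same order. Adult 1 was the highest library in microglia too (85.4 CPM). The source of the Col9a3 reads in ECs was not tested.

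**Figure D2:**
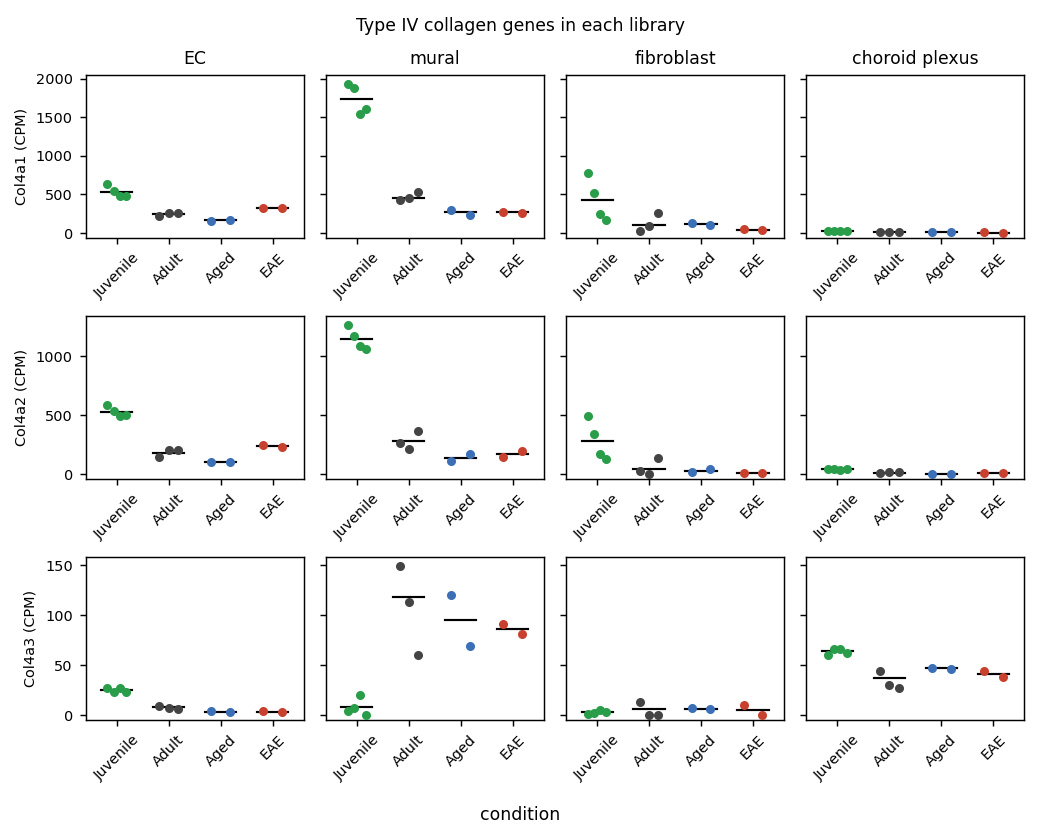
Level of Col4a1, Col4a2 and Col4a3 (rows; CPM, with 1 scale a row) in each library of the 4 conditions, by cell type (columns), with points for libraries and bars for the mean over units. Juvenile mural cells and ECs lie above the adult libraries for Col4a1 and Col4a2, while Col4a3 is near 0 in juvenile mural cells (0 to 20.6 CPM) and at 60.1 to 149 CPM in adult ones.

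Tip cells lead new vessel sprouts and are seen in the juvenile cortex. Of the juvenile ECs, 177 in 4 libraries were called tip-like and 2837 were other ECs, and the 2 sets were compared within libraries. Of 24 members tested, 4 were higher and 6 lower in tip-like ECs (41.7%, background 18.3%). Each of the 4 libraries was taken as a block, although they form 2 pairs that were close to counting noise. The SEs and p-values given here may therefore rest on a spread that is partly technical. With the 2 units as blocks 8 members passed. Lamb1 was at 295, 221, 173 and 204 CPM in tip-like and 50.7, 52.4, 33.4 and 27.7 CPM in other ECs of the 4 libraries (log2 2.51 ± 0.14 (SE), adjusted p = 6.24e-70). Lama4 was at 337, 328, 281 and 302 against 108, 111, 95.8 and 87.2 CPM (1.68 ± 0.11, adjusted p = 4.53e-50). Lamc1 (1.16 ± 0.12, adjusted p = 5.25e-19) and Col4a3 (2.55 ± 0.18, adjusted p = 1.77e-43; 79.4 to 179.9 against 19.1 to 21.03 CPM) were the other 2 that were higher. In every library each of these 4 was higher in the tip-like cells. Lamb2 went the other way, at 32.3, 24.5, 51.5 and 44.98 against 123, 109.6, 129.8 and 128 CPM (-1.55 ± 0.19, adjusted p = 3.79e-15). So did Col18a1, at 13.8, 29.4, 16.4 and 5.29 against 158, 123, 96.5 and 96.4 CPM (-2.89 ± 0.25, adjusted p = 4.87e-29). Col4a1 and Col4a2 differed by 0.21 ± 0.09, adjusted p = 0.1 and 0.21 ± 0.09, adjusted p = 0.101, and so did not pass the test. Of the other 4 lower members, Col5a2 and Lama1 kept their call in each of 5 alternatives. Col3a1 lost it without Juvenile 1 (-1.19, adjusted p = 0.293) and without Juvenile 2. Col14a1 lost it without any 1 of the 4 libraries, and both with the 2 units as blocks (Col14a1 without Juvenile 1, -6.69, adjusted p = 0.102).

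Mural cells, the pericytes of capillaries and the SMCs of arterioles and venules, had the highest Col4a1 and Col4a2 of the 4 types at P10. There, 17 members passed the filter and 11 differed between juvenile and adult libraries, 9 higher and 2 lower (64.7%, background 17.8%). The median log2 fold change was 1.12 (all genes, -0.03), and all 11 reached 20 CPM. Col4a1 was at 1936, 1877, 1539 and 1600.3 CPM in the 4 juvenile and 424, 448 and 531 CPM in the 3 adult libraries. Aged libraries held 304 and 238 CPM and EAE libraries 273 and 261 CPM. Every juvenile library was over every other library (log2 fold change 1.86 ± 0.25 (SE), adjusted p = 0.000211). Col4a2 followed it, at 1059 to 1269 CPM in juvenile, 217 to 370.4 in adult, 109.9 to 169 in aged and 148 to 197 CPM in EAE libraries (1.97 ± 0.25, adjusted p = 0.000159). Col4a3 showed the reverse, at 4.95, 6.96, 20.6 and 0 CPM in the 4 juvenile and 149, 113 and 60.1 CPM in the 3 adult libraries. The aged values were 120.4 and 69.5 CPM and the EAE values 91.1 and 81.1 CPM. Every juvenile library was below every other library (log2 fold change -3.995 ± 0.40 (SE), adjusted p = 4.31e-05). Its last 1500 bases overlap a gene on the other strand, and the strand setting of the counting is not given in the sources used here. The same holds for the 3′ ends of Col4a1, Col9a3, Col10a1 and Col18a1.

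Among the fibrillar collagens tested in mural cells, Col1a2, Col3a1 and Col5a2 rose in juvenile libraries and Col27a1 fell. The Col5a2 call was lost with DESeq2 (1.42, adjusted p = 0.0863) and without Juvenile 1 and 2 (1.10). Col1a2, the alpha 2 chain of type I collagen, was at 665, 658, 573 and 406 CPM in the 4 juvenile and 130.1, 182 and 190.2 CPM in the 3 adult libraries. In the aged libraries the level was 73.3 and 54.6 CPM and in the EAE libraries 56.9 and 81.1 CPM. Its juvenile libraries lay above all others (log2 fold change 1.81 ± 0.26 (SE), adjusted p = 0.000375), and the call was kept under all 19 alternatives. Col3a1, the chain of type III collagen, was at 820.3, 697, 294 and 391 CPM in the 4 juvenile and 72.3, 108 and 135 CPM in the 3 adult libraries. Aged libraries held 10.5 and 14.9 CPM and EAE libraries 0 and 17.4 CPM. It rose in juvenile libraries (log2 fold change 2.45 ± 0.50 (SE), adjusted p = 0.0152), a call lost without Adult 1 (2.13, adjusted p = 0.133). Col1a1, the partner of Col1a2 in type I collagen, stood at 0 to 33.8 CPM in the juvenile libraries and did not pass the filter in mural cells. The summed fibroblast markers of the mural cells were 2399 to 3008 CPM in juvenile and 2142 to 3519 CPM in adult libraries, and their ranges overlapped. Of the 16 other lists, 1 was higher and 5 lower in juvenile than in adult mural cells without overlap: neuron or neuroblast markers in mural cells summed to 2443 to 2861 CPM in juvenile and 631 to 832 CPM in adult libraries (6 of 6 detected), and EC markers to 314 to 399 and 1182 to 1297 CPM (8 of 8 detected). Choroid plexus markers summed to 4984 to 11280.0 against 22710.0 to 61820.0 CPM (8 of 8 detected), and Adult 1 was the highest library in them and in Col4a3, which choroid plexus cells also hold. Oligodendrocyte markers were at 67.6 to 110.3 against 193 to 296 CPM, ependymal markers at 28.7 to 41.3 against 54.2 to 241 CPM and neutrophil markers at 0 to 8.81 against 36.1 to 45.05 CPM. The part of these lists in the juvenile mural changes was not tested. Col8a1, a network-forming short-chain collagen of vessels, was at 131 to 340.4 CPM in juvenile and 39.4 to 65.1 CPM in adult libraries (2.23 ± 0.37, adjusted p = 0.00163). Col18a1 was at 218 to 381 and 16.9 to 110.1 CPM (2.42 ± 0.60, adjusted p = 0.0362), a call lost without either pair of juvenile libraries or any 1 aged or EAE library (without Juvenile 1 and 2, 2.02, adjusted p = 0.138). Col27a1, a fibrillar collagen of cartilage, fell in juvenile mural cells, with 60.1 to 84.3 CPM in adult and 18.8 to 47.00 CPM in juvenile libraries (-1.29 ± 0.29, adjusted p = 0.00764). In microglia its mean was 57.5 to 88.9 CPM, as high as in mural cells, but in ECs it was only 0.954 to 1.73 CPM. The source of its reads in microglia was not tested. The call was lost without Adult 1 (-1.11, adjusted p = 0.0753), without Juvenile 1 and 2 and with DESeq2 (-1.22, adjusted p = 0.158). Without Juvenile 1 and 2 the count of 11 became 7.

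No member passed the test in aged or in EAE mural cells. In aged against adult libraries 0 of 17 passed in the edgeR test (background 0.034%). Of them 8 had an unadjusted p under 0.05, against 374 of all 5891 genes. The smallest adjusted p was 0.489 and the median was -0.84. In EAE 0 of 17 passed (background 1.02%). Here 9 had an unadjusted p under 0.05, against 815 of all 5891 genes. The smallest adjusted p was 0.101 and the median was -0.71. Cells of the mural cluster that were set aside are left out of these tests. They numbered 11 in juvenile, 12 in adult, 21 in aged and 59 in EAE libraries. With them kept, 2 members passed in EAE. Summed over all collagen genes, mural cells were at 4147 to 5943 CPM in juvenile, 1482 to 1792 in adult, 843 to 864 in aged and 820.0 to 933 CPM in EAE libraries. Over all laminin genes they were at 1272 to 1300.0, 1113 to 1390.0, 858 to 952 and 922 to 996 CPM. The aged count was 1 without either pair of juvenile libraries and 3 in pericyte-like cells alone. The EAE count was 4 without Adult 2 and 3 and 2 without either pair of juvenile libraries.

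The share of SMC-like cells among mural cells differed between conditions, at 49.9% of juvenile, 15.7% of adult, 13.1% of aged and 30.2% of EAE mural cells. It also differed within groups, from 31.7% to 54.7% in juvenile, 7.55% to 28.6% in adult, 8.27% to 18.1% in aged and 28.3% to 32.3% in EAE libraries. Without Adult 1 the adult share was 24.4%. Each subtype was therefore also examined. Within pericyte-like cells alone 10 of 14 members tested differed between juvenile and adult libraries (71.4%, background 28.3%). Col4a1 (1.83 ± 0.19, adjusted p = 2.69e-08) and Col4a2 (1.85 ± 0.19, adjusted p = 1.63e-08) rose and Col4a3 (-4.77 ± 0.52, adjusted p = 4.66e-08) fell. Lamb2 fell there too (-1.24 ± 0.25, adjusted p = 0.000399), while over all mural cells it missed the threshold (-0.55 ± 0.22, adjusted p = 0.0942). Within SMC-like cells alone 5 of 10 members tested passed (50%, background 10.5%), all higher in juvenile libraries. They are Col4a1 (1.93 ± 0.28, adjusted p = 0.00145), Col4a2 (2.185 ± 0.30, adjusted p = 0.0012), Col1a2 (2.57 ± 0.31, adjusted p = 0.000589), Col3a1 (3.67 ± 0.64, adjusted p = 0.00964) and Col8a1 (4.08 ± 0.55, adjusted p = 0.001). Col18a1 did not pass in them (1.27 ± 0.45, adjusted p = 0.0945). In aged pericyte-like cells alone 3 of 14 passed (21.4%, background 0.602%) and in EAE 1 of 14 (7.14%, background 3.27%). In aged ones Col1a2 (-1.82 ± 0.42, adjusted p = 0.0393), Col3a1 (-3.61 ± 0.75, adjusted p = 0.0266) and Col4a2 (-1.19 ± 0.25, adjusted p = 0.0266) fell, and in EAE Col3a1 did (-3.91 ± 0.94, adjusted p = 0.0141). Col3a1 went from 62.9, 109 and 154 CPM in the adult to 13.6 and 0 in the aged and 0 and 10.8 CPM in the EAE libraries. Over all mural cells, 2 of the 16 other marker lists were higher and 3 lower in aged than in adult libraries without overlap, and 3 were higher and 4 lower in EAE libraries. Neutrophil markers (4 of 5 detected, Ly6g at 0) were at 215 to 318 CPM in aged and 216 to 272 CPM in EAE libraries, against the adult values above. Choroid plexus markers were at 5947 to 20360.0 and 9834 to 11120.0 CPM, also below the adult values. EC markers were at 608 to 905 CPM in EAE against 1182 to 1297 CPM in adult libraries. The part of these lists in the aged and EAE values was not tested.

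The 2 mural subtypes held different laminin chains. Of 18 members tested within units, 13 differed, 4 higher and 9 lower in SMC-like cells (72.2%, background 41.1%). Lama5 was at 49.7 to 324 CPM in SMC-like cells and 0 to 26.3 CPM in pericyte-like cells over the 11 libraries (log2 4.29 ± 0.33 (SE), adjusted p = 6.41e-12), without overlap. Lamb2 was higher in SMC-like cells as well, at 294 to 637 against 112 to 342 CPM (1.058 ± 0.19, adjusted p = 2.48e-05), with overlap between libraries. Lama4 (-1.47 ± 0.34, adjusted p = 0.00196), Lamc1 (-1.18 ± 0.20, adjusted p = 1.47e-05) and Lamb1 (-2.19 ± 0.31, adjusted p = 1.45e-06) were lower. Lamb1 was at 98.9, 92.8, 94.6 and 74.6 CPM in the 4 juvenile SMC-like sums but had no UMI at this depth in the 7 later ones, each of 11 to 32 cells. Pericyte-like cells held 329 to 356 CPM in juvenile and 24.6 to 134 CPM in later libraries. Lama2 (-1.98 ± 0.27, adjusted p = 5.82e-07) and Lamc3 (-1.98 ± 0.27, adjusted p = 3.70e-07), which are named after their values were seen, were lower too. Of the collagens, Col18a1 was higher in SMC-like cells (3.16 ± 0.29, adjusted p = 2.80e-10; 23.2 to 453 against 0 to 105 CPM), and Col4a1 lower (-0.45 ± 0.18, adjusted p = 0.0423), a call lost under 7 of 9 alternatives (without Adult 1, -0.40, adjusted p = 0.0982). It was also lost without Juvenile 1 and 2 and without any 1 aged or EAE library. Col4a2 differed by -0.17 ± 0.18, adjusted p = 0.699.

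**Figure D3:**
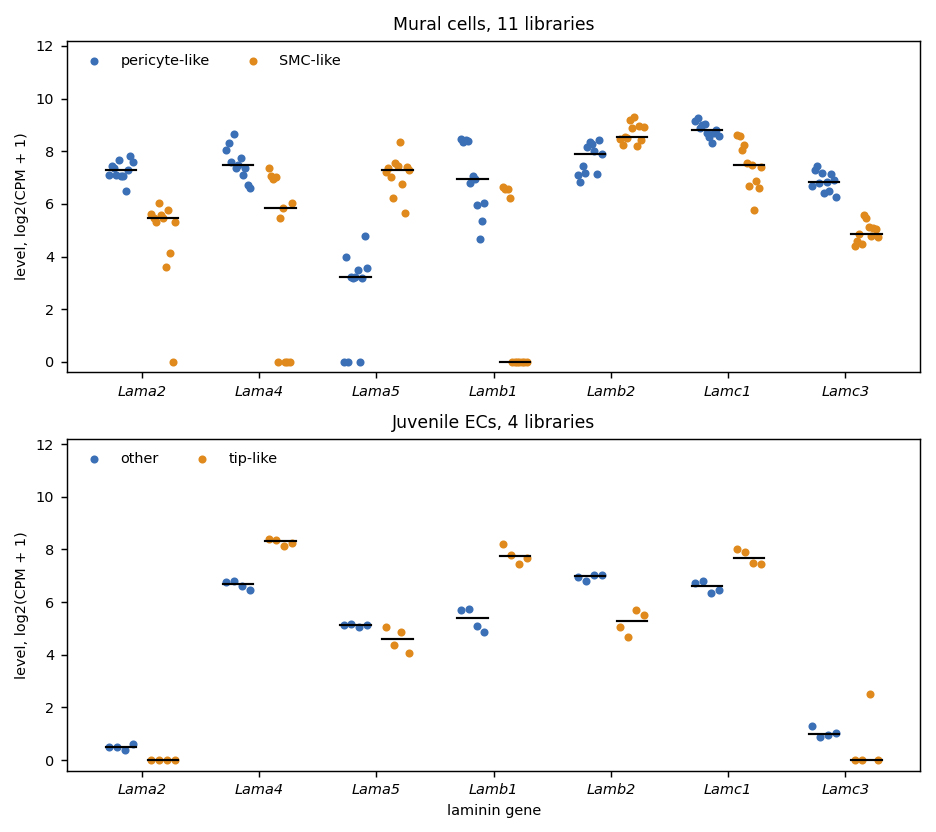
Level of 7 laminin genes as log2(CPM + 1) in each library, for pericyte-like and SMC-like mural cells (upper panel, 11 libraries) and for other and tip-like juvenile ECs (lower panel, 4 libraries), with bars for medians. Lama5 separates SMC-like from pericyte-like cells, and Lama4, Lamb1 and Lamc1 lie higher in tip-like than in other ECs while Lamb2 lies lower.

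ECs and mural cells share a basement membrane, and the difference between their juvenile-to-adult changes was tested in 1 fit. Of 39 members tested, 8 changed differently in the 2 types (20.5%, background 6.51%), 4 with a more positive log2 change in ECs and 4 with a more positive one in mural cells. Col4a3 differed most, rising in juvenile ECs and falling in juvenile mural cells (difference log2 5.57 ± 0.45 (SE), adjusted p = 3.34e-31). The laminin genes Lamb1 (2.05 ± 0.34, adjusted p = 1.87e-07), Lamc1 (1.31 ± 0.23, adjusted p = 1.45e-06) and Lama4 (0.87 ± 0.26, adjusted p = 0.0149) had the larger juvenile excess in ECs. In mural cells Lamc1 changed by -0.11 ± 0.26, adjusted p = 0.814 and Lama4 by 0.50 ± 0.23, adjusted p = 0.16, neither of which passed. There Lamc1 was at 399.8, 413, 335 and 361 CPM in the 4 juvenile and 492, 296 and 275 CPM in the 3 adult libraries. The aged values were 257 and 322 CPM and the EAE values 245 and 284 CPM. Col8a1 (-2.71 ± 0.34, adjusted p = 2.44e-13), Lamc3 (-1.69 ± 0.49, adjusted p = 0.0136, named after its values were seen), Col3a1 (-1.02 ± 0.32, adjusted p = 0.0224) and Col4a1 (-0.73 ± 0.22, adjusted p = 0.0194) had the more positive change in mural cells, and Col4a2 did not differ past the threshold (-0.38 ± 0.23, adjusted p = 0.432). The mural sums pool both subtypes, and SMC-like cells made up 49.9% of juvenile and 15.7% of adult mural cells. Lamb1, Lamc1, Lama4, Lamc3, Col4a3 and Col4a1 were called lower in SMC-like than in pericyte-like cells, while Col3a1 and Col8a1 did not pass. The part of this mix in the differences was not tested. Col4a3, Lamb1, Lamc1 and Col8a1 kept the call under all 9 alternatives. The other 4 did not. Without Adult 2 and 3, Col4a1 was at -0.73, adjusted p = 0.0601, Lama4 at 0.85, adjusted p = 0.0564, Lamc3 at -1.20, adjusted p = 0.352 and Col3a1 at -0.50, adjusted p = 0.806. The 4 were also lost without Juvenile 3 and 4, all but Col3a1 without Juvenile 1 and 2, and Col4a1 without Adult 1 and without Aged 2. The count of 8 became 5 without Juvenile 1 and 2 and 4 without Juvenile 3 and 4.

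Fibroblasts had the highest collagen total, 7549 to 12190.0 CPM in juvenile, 3375 to 7492 in adult, 2677 to 2837 in aged and 1877 to 3532 CPM in EAE libraries, and none of their members passed the test. Of 24 members tested, 0 passed in juvenile (background 0.189%), 0 in aged (background 0.0%, 204 of all genes with an unadjusted p under 0.05) and 0 in EAE (background 0.852%) against adult fibroblasts in edgeR. An unadjusted p under 0.05 was found for 8, 3 and 5 members, against 451, 204 and 558 of all 3169 genes. The smallest adjusted p values were 0.156, 0.495 and 0.0554, with medians of 0.65, -0.45 and -0.89. Col1a1 was at 2881, 2053, 1989.8 and 1819 CPM in the 4 juvenile and 507, 2585 and 1742 CPM in the 3 adult libraries. In the aged libraries the level was 447 and 462 CPM and in the EAE libraries 192 and 652 CPM. The 3 adult libraries, of 18 to 23 fibroblasts each, span a range that overlaps the juvenile libraries, and the aged and EAE libraries lie low. None of the 3 differences passed (log2 fold change 0.64 ± 0.67 (SE), adjusted p = 0.723 for juvenile, -1.63 ± 0.70, adjusted p = 0.733 for aged, -1.66 ± 0.73, adjusted p = 0.289 for EAE). Col3a1 was at 1922, 1357, 968 and 906 CPM in the 4 juvenile and 213, 464 and 379 CPM in the 3 adult libraries. Aged libraries held 89.5 and 83.5 CPM and EAE libraries 40.4 and 704 CPM. The juvenile difference from adult was 1.94 ± 0.93, adjusted p = 0.422, with libraries that did not overlap. The filament-forming type VI chains Col6a1 and Col6a2 were at 668 to 735 and 524 to 595 CPM in juvenile, 560.2 to 638 and 387 to 638 in adult, and 141 to 287 and 111 to 248 CPM in EAE libraries (EAE -1.41 ± 0.35, adjusted p = 0.0754 and -1.46 ± 0.40, adjusted p = 0.0972). Col12a1, which binds fibril surfaces, was at 304 to 367 CPM in juvenile and 120.0 to 364 CPM in adult libraries (0.66 ± 0.40, adjusted p = 0.497). The mural markers in fibroblasts summed to 1053 to 2739 CPM in juvenile and 364 to 987 CPM in adult libraries. Of that sum Vtn alone held 933 to 2512 CPM in juvenile and 37.7 to 747 CPM in adult libraries. Rgs5 (7.34 to 38.5 against 0 to 53.4 CPM), Pdgfrb (62.4 to 99.6 against 80.0 to 173 CPM) and Acta2 (3.67 to 34.2 against 0 to 26.7 CPM) overlapped. Astrocyte markers in fibroblasts (6 of 6 detected) summed to 2483 to 3089 CPM in juvenile, 1569 to 2414 CPM in adult, 693 to 731 CPM in aged and 182 to 456 CPM in EAE libraries. Neuron or neuroblast markers (6 of 6) were at 835 to 1005 CPM in juvenile and 0 to 121 CPM in adult libraries, and choroid plexus markers (8 of 8) at 5152 to 15380.0 and 16210.0 to 51740.0 CPM. In all, 6 of the 16 other lists in juvenile, 8 in aged and 8 in EAE fibroblasts did not overlap with adult ones. Their part in the fibroblast values was not tested. The juvenile count was 3 without Juvenile 3 and 4. The EAE count was 1 without Adult 1 or without Adult 2 and 3, 3 without Juvenile 1 and 2 and 4 without Juvenile 3 and 4.

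The 2 fibroblast clusters held these genes at different levels, and cluster 24 made up 17.2% of juvenile, 12.7% of adult, 23.4% of aged and 60.5% of EAE fibroblasts. The juvenile share was 31.7% in Juvenile 1 and 2 and 9.95% in Juvenile 3 and 4, so that without the latter pair it was above the aged share. This is a description without a test. In the 4 juvenile libraries Col1a1 was at 4328, 3307, 3731 and 3272 CPM in cluster 24 and 1955, 1423, 1743 and 1625 CPM in cluster 13. Col3a1 was at 3341, 2761, 2190.5 and 1887 against 1015, 652, 795 and 775 CPM. Every library had more of both in cluster 24. Col4a1 was at 1751, 1259, 1240.5 and 747 against 149, 147, 104 and 97.8 CPM, and Col18a1 at 655, 609, 679 and 434 against 17.5, 19.05, 10.5 and 6.34 CPM.

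Col1a2 and Col3a1 were high in fibroblasts and also rose in juvenile mural cells, and their promoters are shown for that reason, as the 250 bases before the RefSeq start in GRCm38.p6. Both lie on the plus strand and are written 5′ to 3′. Col1a2 is at chr6:4505368-4505617 and Col3a1 at chr1:45311288-45311537, and capitals mark matches to the GC box GGGCGG, the CCAAT box or the TATA box motif TATAAA:
Col1a2: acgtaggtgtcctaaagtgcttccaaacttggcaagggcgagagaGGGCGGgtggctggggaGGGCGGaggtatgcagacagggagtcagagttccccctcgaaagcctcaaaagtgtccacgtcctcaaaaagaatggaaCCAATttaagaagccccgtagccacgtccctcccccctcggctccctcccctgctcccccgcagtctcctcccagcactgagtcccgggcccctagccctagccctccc
Col3a1: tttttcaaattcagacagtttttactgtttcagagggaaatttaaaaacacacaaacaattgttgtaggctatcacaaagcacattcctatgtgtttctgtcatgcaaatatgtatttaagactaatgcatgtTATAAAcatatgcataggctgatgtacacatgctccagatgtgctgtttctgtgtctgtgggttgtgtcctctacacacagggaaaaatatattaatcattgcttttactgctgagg
Col1a2 held 2 GGGCGG, starting 205 and 188 bases before the start, and 1 CCAAT at 109 bases, and Col3a1 held 1 TATAAA at 117 bases. The 3 motifs were searched on both strands in the same 250 bases of 32851 promoters, and 40 members were matched, with 44 promoters. TATAAA was in the promoters of 5 members and 12.4% of all promoters, CCAAT in 14 members and 33.8%, and GGGCGG in 23 members (24 of 44 promoters, 54.5%) and 32.7% of all. A match describes the letters only.

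Choroid plexus cells expressed another set of collagens, headed by the short-chain type VIII chains and by Col9a3, a chain of the fibril-associated type IX collagen. Of 32 members tested, 27 differed between juvenile and adult libraries, 26 higher and 1 lower (84.4%, background 50.9%). The median log2 fold change was 1.42 (all genes, -0.01), and 14 of the 27 reached 20 CPM. Col8a1 was at 329, 342, 416 and 415 CPM in the 4 juvenile and 192, 156 and 146 CPM in the 3 adult libraries. The aged values were 204 and 231 CPM and the EAE values 219.7 and 215 CPM. The juvenile libraries lay above all others (log2 fold change 0.98 ± 0.14 (SE), adjusted p = 2.92e-05). Col8a2, its partner, was at 236, 256, 259 and 271 CPM in the 4 juvenile and 154, 119 and 124 CPM in the 3 adult libraries. In the aged libraries the level was 159 and 143 CPM and in the EAE libraries 189 and 209 CPM. It was higher than adult in juvenile (0.74 ± 0.13, adjusted p = 0.00029) and in EAE libraries (0.41 ± 0.13, adjusted p = 0.0285). The EAE call was lost without either EAE library (without EAE 2, 0.35) and without Adult 2 and 3. It was also lost without the filter on low counts (0.40, adjusted p = 0.0665). Col9a3 was at 674, 677, 687 and 716 CPM in the 4 juvenile and 511, 451 and 459.5 CPM in the 3 adult libraries. Aged libraries held 532 and 481 CPM and EAE libraries 512 and 515 CPM. It was higher in juvenile libraries by a small amount (log2 fold change 0.36 ± 0.13 (SE), adjusted p = 0.0342). The call was lost under 7 of 16 alternatives, among them the removal of either pair of juvenile libraries or any 1 aged or EAE library (without EAE 1, 0.36, adjusted p = 0.0791).

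The largest juvenile rises over 20 CPM in choroid plexus cells were those of Col27a1, Col14a1 and Col1a2. Col27a1 was at 76.8, 82.2, 76.8 and 86.4 CPM in juvenile and 6.31, 9.57 and 9.23 CPM in adult libraries (log2 fold change 3.19 ± 0.20 (SE), adjusted p = 1.08e-08). In microglia it was at a mean of 57.5 CPM in juvenile and 88.9 CPM in adult libraries, the opposite order. In ECs the means were 1.73 and 1.25 CPM. Col14a1, a fibril-associated collagen, was at 35.8, 36.4, 25.7 and 22.9 against 4.78, 5.98 and 6.403 CPM (2.26 ± 0.24, adjusted p = 2.01e-06). Col1a2 was at 84.8, 79.2, 91.7 and 90.2 against 24.1, 11.6 and 12.4 CPM (2.13 ± 0.21, adjusted p = 6.58e-06). The fibroblast markers in these cells, with all 10 detected, were also higher as a sum. The sum was 862 to 936 CPM in juvenile and 406 to 511 CPM in adult libraries. Of it, the defining marker Dcn held only 10.82 to 14.96 against 1.395 to 2.072 CPM. Lum overlapped (0.4644 to 2.828 against 0.5089 to 1.318 CPM), and Apod was lower in juvenile libraries (7.07 to 11.3 against 22.79 to 24.43 CPM). The other markers, which hold most of the sum, are not given singly. Neuron or neuroblast markers (6 of 6 detected) were at 164 to 258 against 10.9 to 53.2 CPM, OPC markers (6 of 6) at 68.8 to 86.1 against 25.1 to 35.9 CPM and EC markers (8 of 8) at 608 to 675 against 1896 to 1985 CPM. In all, 3 of the 16 other lists were higher and 7 lower in juvenile choroid plexus cells without overlap, and their part in the result was not tested. Col1a1, which is higher than Col1a2 in fibroblasts at P10, was at 3.77 to 6.04 CPM here. Among basement membrane genes, Lama5 (45.7 to 55.6 against 16.5 to 24.02 CPM, 1.15 ± 0.16, adjusted p = 2.90e-05), Col4a3 (60.8 to 66.9 against 27.5 to 44.9 CPM, 0.65 ± 0.15, adjusted p = 0.00196) and Lamb2 (0.55 ± 0.16, adjusted p = 0.00947) rose. So did Col4a5 (40.6 to 51.7 against 8.098 to 16.2 CPM, 1.66 ± 0.19, adjusted p = 5.61e-06), Col4a2 (1.46 ± 0.22, adjusted p = 8.07e-05), Lamc1 (1.38 ± 0.17, adjusted p = 8.30e-06), Col4a1 (0.44 ± 0.18, adjusted p = 0.0494), Col4a6 (2.27 ± 0.52, adjusted p = 0.00178) and Col18a1 (0.70 ± 0.15, adjusted p = 0.00091), named after their values were seen. The Col4a1 call was lost under 12 alternatives, among them without doublets (0.09, adjusted p = 0.724), without Adult 1 and with DESeq2. The Lamb2 call was lost without Adult 2 and 3 (0.40, adjusted p = 0.0577), without Juvenile 3 and 4 and with DESeq2 (0.54, adjusted p = 0.0677). Lamb1 did not pass (43.3 to 57.4 against 36.9 to 47.6 CPM, 0.08 ± 0.13, adjusted p = 0.632). Col17a1, a transmembrane collagen of hemidesmosomes and named after its values were seen, was the 1 that fell (-1.27 ± 0.20, adjusted p = 8.08e-05; 11.8 to 15.3 CPM in adult libraries). In aged choroid plexus cells 0 of 32 passed in edgeR (background 1.29%). Of the 32, 11 had an unadjusted p under 0.05, against 1528 of all 12882 genes, and the smallest adjusted p was 0.0571. However, some members passed without Adult 1 and without either pair of juvenile libraries, where the share over all genes was not counted. In EAE 1 rose and 7 fell (25%, background 31.4%, median -0.08), and Col8a2 was the 1 of the 8 that reached 20 CPM. Those that fell include Col4a1 (-1.46 ± 0.21, adjusted p = 0.000139), Col4a2 (-1.07 ± 0.26, adjusted p = 0.00735) and Lama4 (-3.11 ± 0.53, adjusted p = 0.000445), which ECs express. The Col4a2 call was lost without EAE 1 (-1.08, adjusted p = 0.0552), without EAE 2 (-1.05, adjusted p = 0.0673) and without Adult 2 and 3 (-0.55, adjusted p = 0.0696). EC markers in choroid plexus cells (8 of 8 detected) moved with Col4a1, Col4a2 and Lama4, at 1896 to 1985 CPM in adult and 720.3 to 874 CPM in EAE libraries. The others that fell, named after their values were seen, were Col1a1, Col3a1, Col6a2 and Col11a1. All are among the members highest in fibroblasts, and each lost its call with DESeq2 (-3.66 to -4.24). Fibroblast markers in choroid plexus cells (10 of 10 detected) were higher, at 406 to 511 CPM in adult and 524 to 546 CPM in EAE libraries. In all, 4 other lists were higher and 8 lower in EAE choroid plexus cells without overlap, and their part in the result was not tested. The count of 8 became 2 and 3 without EAE 1 and EAE 2, and 5 without Adult 2 and 3.

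**Figure D4:**
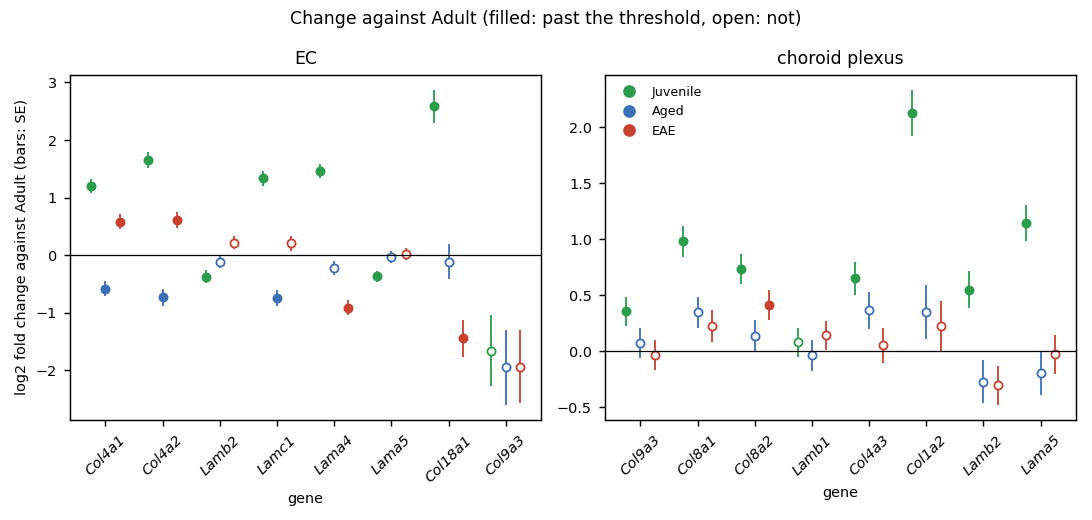
Log2 fold change against adult libraries of the 8 highest members in ECs (left) and in choroid plexus cells (right) for juvenile, aged and EAE libraries, with standard errors as bars and filled symbols for values past the threshold. Col4a1, Col4a2, Lama4, Lamc1 and Col18a1 rise in juvenile ECs, Col4a1 and Col4a2 move down in aged and up in EAE ECs, and the choroid plexus changes are mostly juvenile.

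The genes that build, link, cut and bind this matrix were read as 4 lists. They are 14 linkers such as nidogens and fibronectin, 24 biosynthesis genes such as chaperones and cross-linking enzymes, 14 degradation genes and 13 receptors. The degradation list holds proteases and also their inhibitors Timp1, Timp2, Timp3 and Timp4, so its counts do not measure cutting alone. In juvenile against adult ECs 11 of 13 tested linkers rose and 0 fell, 7 of 18 biosynthesis genes rose and 5 fell. Of the rest, 3 of 11 degradation genes rose and 2 fell, and 1 of 11 receptors rose and 4 fell (background of all genes 35.4%). Fkbp10, a prolyl isomerase of collagen folding, was at 141 to 150.4 CPM in juvenile and 6.28 to 9.41 CPM in adult ECs (4.20 ± 0.19, adjusted p = 7.79e-07). Timp1, an inhibitor of matrix metalloproteinases, was at 23.3 to 36.2 and 0.819 to 1.99 CPM (4.27 ± 0.33, adjusted p = 1.40e-05). In aged ECs 4 of the 13 linkers, 1 of the 18 biosynthesis genes and 3 of the 11 degradation genes fell, 1 biosynthesis gene rose and 0 of 11 receptors changed (background 3.72%). Among them Fbln1, which encodes fibulin-1, changed by -2.23 ± 0.29, adjusted p = 0.00505. In EAE ECs 5 of 13 linkers, 6 of 18 biosynthesis genes, 2 of 11 degradation genes and 2 of 11 receptors fell, while 1, 3, 1 and 3 rose (background 24.6%). Mmp15, a membrane-bound metalloproteinase, was at 1.26 CPM or less in EAE ECs against 36.99 to 40.4 CPM in adult ECs (-4.77 ± 0.17, adjusted p = 7.86e-07).

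In juvenile mural cells 3 of 6 linkers, 4 of 15 biosynthesis and 2 of 8 degradation genes rose, 1 biosynthesis and 1 degradation gene fell and 0 of 7 receptors changed (background 17.8%). Fn1, fibronectin, was at 90.2 to 147 CPM in juvenile and 21.7 to 50.1 CPM in adult mural cells (1.96 ± 0.35, adjusted p = 0.00193). In aged mural cells 0 of the 36 tested genes of the lists passed in edgeR (background 0.034%), and in EAE 1 did (background 1.02%): Serpinh1, the collagen chaperone HSP47, fell to 268 to 440.3 CPM from 811 to 1039 CPM (-1.47 ± 0.28, adjusted p = 0.0171), with 1326 to 1865 CPM in juvenile libraries. In fibroblasts 0 of 33 tested genes passed in each comparison. In juvenile choroid plexus cells 8 of 13 linkers rose and 0 fell, and 10 of 20 biosynthesis genes rose and 3 fell. There 6 of 10 degradation genes rose and 1 fell and 5 of 11 receptors rose and 2 fell (background 50.9%). Npnt, which encodes nephronectin, was at 106 to 127 against 8.55 to 10.4 CPM (3.50 ± 0.15, adjusted p = 1.25e-10). In aged choroid plexus cells 1 degradation gene, Adamts5, fell (-1.25 ± 0.27, adjusted p = 0.0271), and in EAE 5 rose and 7 fell of the 54 tested genes of the lists (backgrounds 1.29% and 31.4%).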

How the data were processed

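Cells of mouse cortex were measured with a 10x 3′ protocol that counts unique molecular identifiers (UMIs). The authors deposited raw UMI counts per gene and cell for 11 libraries; per the labels these came from bcl2fastq 2.19.1.403, UMI-tools 0.5.3, STAR 2.5.3a and featureCounts 1.6.1 on mm10, and the strand setting is not given in the sources used here. Cells with over 500 and under 6000 genes and under 25% mitochondrial UMIs were kept (50625 of 54646 barcodes). Clusters were made in Seurat 5.3.0 (R 4.3.3; 2000 variable genes without collagen, laminin and other matrix genes, 12 components, resolution 0.5, 27 clusters) and named from markers. Doublets were called with Scrublet in scanpy 1.11.5 (764 cells) and left in, being removed as an alternative; the caller marked almost none in aged libraries. Libraries shared at most 1.53% of barcodes.

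Counts were summed per type and library, and close libraries were summed to 8 units with at least 10 cells. The quasi-likelihood test of edgeR 4.0.16 used TMM factors, filterByExpr and Benjamini-Hochberg adjustment over all genes at 0.05. GENCODE M21 gave positions and RefSeq (GRCm38.p6) sequences. Samples were grouped by the labels' age and treatment. Members and lists were chosen with earlier results of these data known. Named were the 8 members with the highest CPM in each type and up to 3 called members in each direction with the largest fold and at least 20 CPM. Of the other matrix genes, named ones are among the 2 with the largest fold in a comparison. Alternatives were DESeq2 1.42.0, RLE factors, no filter, other units, removal of doublets, other cell naming, single subtypes, a replicate block and leaving out each library or summed pair; SMC-like cells alone, fibroblast cluster 13 alone and keeping set-aside mural cells were chosen after seeing the data.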

Additional observations from a re-analysis of the deposited data

Results flagged for a closer look

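The juvenile-to-adult change differed between ECs and mural cells for 8 collagen and laminin genes, by edgeR's test of the difference itself (log2 change in ECs minus that in mural cells). The difference was 5.57 for Col4a3, 2.05 for Lamb1, 1.315 for Lamc1 and 0.87 for Lama4, the genes with the more positive change in ECs. It was -2.71 for Col8a1, -1.69 for Lamc3, -1.02 for Col3a1 and -0.73 for Col4a1, the genes with the more positive change in mural cells. SMC-like cells made up 49.9% of juvenile and 15.7% of adult mural cells, and the part of this mix was not tested. The calls of Col4a3, Lamb1, Lamc1 and Col8a1 were kept under all 9 alternatives. Without Adult 2 and 3 that of Col3a1 was lost (-0.50, adjusted p = 0.806), as were those of Col4a1, Lama4 and Lamc3, each also lost under 1 to 4 other alternatives. The count of 8 was 4 without Juvenile 3 and 4.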

How the results depend on the processing

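Of 270 counts of collagen and laminin genes under alternatives, 219 stayed within 1.5 times the reported count, and the 111 called gene results gave 1533 values under alternatives, of which 1309 kept their call, 224 lost it and 0 reversed; 65 results were called under every alternative run. Without the filter on low counts the count was 10 in aged ECs, 17, 3 and 6 in juvenile, aged and EAE mural cells, 6 and 4 in juvenile and EAE fibroblasts and 3 in aged choroid plexus cells, with more genes tested. With 11 libraries as separate replicates it was 1 in EAE mural cells, 3 and 3 in juvenile and EAE fibroblasts and 2 in aged choroid plexus cells, and with only Adult 2 and 3 summed 3 in EAE fibroblasts and 1 in aged choroid plexus cells. DESeq2 gave 2 in EAE fibroblasts and 4 in EAE choroid plexus cells, naming by marker score 1 in EAE mural cells and 4 in EAE fibroblasts, pericyte-like cells alone 3 and 1 in aged and EAE mural cells, SMC-like cells alone 5 in juvenile mural cells, and keeping set-aside cells 2 in EAE mural cells. The share over all genes was not counted under these alternatives, except for the single subtypes. Beyond the filter and the number of samples, the cause was not tested.

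Leaving out 1 library or summed pair gave 0 to 8 in aged and 2 to 13 in EAE ECs, 7 to 13, 0 to 1 and 0 to 4 in juvenile, aged and EAE mural cells, 0 to 3 and 0 to 4 in juvenile and EAE fibroblasts, 0 to 6 and 2 to 11 in aged and EAE choroid plexus cells, and 4 to 8 for the difference between ECs and mural cells.

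Deviations of same-numbered libraries from their group means had correlations of -0.129 to 0.224 over 5994 genes in ECs, highest for Juvenile 2 with Aged 2. In the aged and EAE groups the deviations of the 2 libraries mirror each other. These values therefore cannot decide whether libraries of 1 number share a batch. With the replicate block on 11 libraries, juvenile, aged and EAE counts were 22, 5 and 15 in ECs, 13, 0 and 1 in mural cells, 1, 0 and 3 in fibroblasts and 27, 3 and 10 in choroid plexus cells. Each later library held only 18 to 40 fibroblasts, and the part of cell number in the fibroblast results was not tested.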
